A study of Caenorhabditis elegans with 4 samples.

Results

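Chromosome IV of the nematode Caenorhabditis elegans carried 1959 regions bound by HLH-1::GFP, out of 13091 in a list that covers all 6 nuclear chromosomes. Its members are simply every peak of the list that lies on chromosome IV, so neither strength nor width played a part in their choice. The data are from ChIP-seq, in which DNA crosslinked to a protein is precipitated with an antibody and sequenced. Embryos of a strain labelled as hermaphrodite gave 2 ChIP libraries and 2 libraries of input DNA, as replicates 1 and 2. The ChIP libraries were precipitated with an affinity-purified goat antibody against GFP. Formaldehyde at 2% is given for ChIP and input alike. All 4 came from strain OP64, grown at 20 °C, which carries the mutation unc-119(ed3) on chromosome III. Its transgene wgIs64, introduced by bombardment, holds unc-119(+) together with the fusion hlh-1::TY1::EGFP::3xFLAG. Mutation and transgene are common to ChIP and input. HLH-1 was measured as a tagged product of added gene copies, and the labels give whole embryos, with no sorting by cell type or narrower stage.

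HLH-1 is a transcription factor of the basic helix-loop-helix type, related to vertebrate MyoD. It acts in the body wall muscle lineage of the embryo, and proteins of this family bind short E-box sequences. On the autosomes of C. elegans the central part holds more of the conserved and essential genes, while the arms recombine more and hold more repeats. Chromosome IV is also known for broad clusters of genes for 21U-RNAs, the piRNAs of the worm. Neither gene of the transgene has its own locus there: hlh-1 is on chromosome II and unc-119 on chromosome III in the RefSeq gene table of WBcel235. Where the transgene is inserted is not given in the sources used here.

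The list is 1 combined set of peaks with positions on the WormBase WS180 build and a q-value for each peak, the authors' own measure of how unlikely the enrichment over input is. Values of single replicates and read counts are not part of it. Whether the replicates were pooled before calling or their calls merged, and whether the caller set its threshold for each chromosome separately, is not stated. The latter bears on each comparison of density and of weak peaks between chromosomes. Depth and replicate error are unknown, no test over samples was possible, and every comparison here is a description. Densities are given with the SD over blocks of 1 Mb. Intervals of medians and shares are exact 95% binomial intervals; they treat peaks as independent, which neighbouring peaks are not, and cover counting error only.

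Chromosome IV had the fewest peaks per length of the 6 chromosomes, and its median peak was wider than that of every other autosome. Over its 17.5 Mb, taken to the end of the last peak, it carried 112.1 peaks per Mb, against 134.7 per Mb on the 5 other chromosomes together. Its 17 whole blocks of 1 Mb held 112.5 ± 24.9 peaks (SD), from 57 to 155. The 79 whole blocks of the other chromosomes ran from 67 to 184 with a median of 136, so most blocks of chromosome IV lay within the range found elsewhere. Chromosome V was closest, with 119.6 ± 21.7 peaks per block (SD, 20 blocks). The difference of chromosome IV from chromosome V was smaller than the spread between blocks of either.

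The median peak of chromosome IV was 268 bp wide (interval 257 to 280 bp), with quartiles of 175 and 407.5 bp. The other autosomes had medians of 210 bp on V, 220 bp on I, 229.5 bp on III and 233 bp on II, and the highest upper bound among them was 245 bp. The X chromosome, at 280 bp (interval 272 to 287 bp), was the only one with a wider median, and its interval overlapped that of chromosome IV. Very short peaks were few: 7.45% of the chromosome IV peaks (interval 6.33% to 8.71%) were under 50 bp, against 9.84% on the other chromosomes (9.29% to 10.4%). X alone had nearly the same share as IV, 7.63% (6.61% to 8.75%). In all, peaks covered 3.64% of chromosome IV, against 3.92% of the other chromosomes, a smaller gap than that in number.

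Strong peaks were a smaller share on chromosome IV than in the list as a whole, a list that includes X with its 24.5%. A peak is called strong here at a q-value of 1e-10 or less. Of the 1959 peaks, 326 were strong, or 16.6% (interval 15.02% to 18.4%), against 19.2% of the whole list and 19.6% of the other chromosomes. Without X, the other 4 autosomes had 18.3% (17.5% to 19.1%), an interval that overlaps that of chromosome IV. Only chromosome V, with 14.4%, had a smaller share. At a q-value of 1e-50 or less there were 23 peaks on chromosome IV, 1.17% (interval 0.746% to 1.76%), against 1.37% of the whole list and 1.41% of the other chromosomes, a difference within the counting error.

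**Figure D1:**
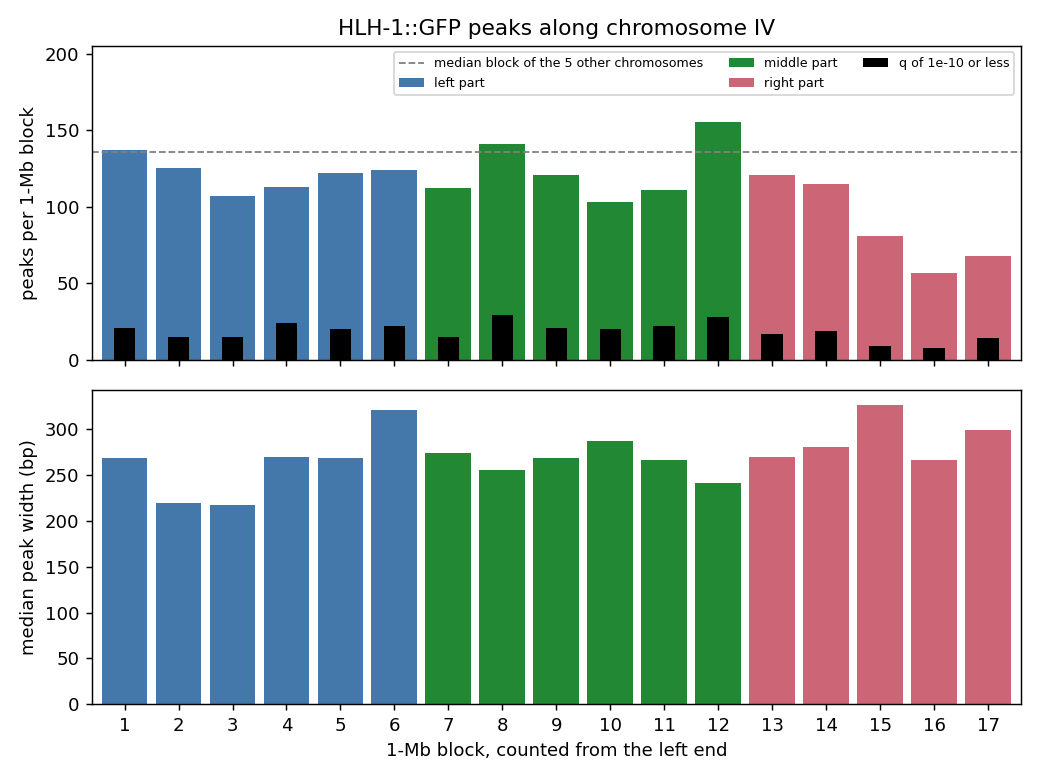
Peaks in each whole 1-Mb block of chromosome IV, counted from the left end (top; black bars are strong peaks, q of 1e-10 or less) and median peak width in bp in the same blocks (bottom), with colours for the 3 equal parts of the chromosome. Blocks 1 to 14 hold 103 to 155 peaks and blocks 15 to 17 hold 57 to 81, while the median widths of blocks 15 to 17 lie between 266 and 326 bp.

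Each chromosome was cut into 3 parts of equal length, called left, middle and right. Chromosome IV was nearly even over its left and middle parts and thinned out in its right part. The left part, up to position 5825573, held 693 peaks, or 118.96 per Mb. The middle part, up to 11651146, held 722, or 123.9 per Mb. The right part held 544, or 93.4 per Mb, which was the lowest density among the 18 parts of the 6 chromosomes. The next lowest was the left part of chromosome II with 105.7 per Mb. By the share of length covered by peaks, 3.26%, the right part of IV ranked only 4 from the lowest. Lower shares were found in the right part of V (2.70%), the left part of II (2.88%) and the left part of V (3.17%).

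The right part of chromosome IV had 0.769 times the density of its left and middle parts together (interval 0.695 to 0.849). On the other chromosomes the same ratio lay between 0.904 on V and 1.01 on X, so chromosome IV stood at the low end. Its middle part exceeded its left part by a factor of 1.04, where the other chromosomes gave factors from 1.06 on I to 1.43 on II. The dense middle part seen on II and III was thus little marked against the left part of IV, as it also was on I and on X (1.07). The blocks of the right part varied widely: their mean was 88.4 ± 28.4 peaks (SD, 5 blocks), with 2 blocks at 115 and 121 and 3 blocks from 57 to 81.

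**Figure D2:**
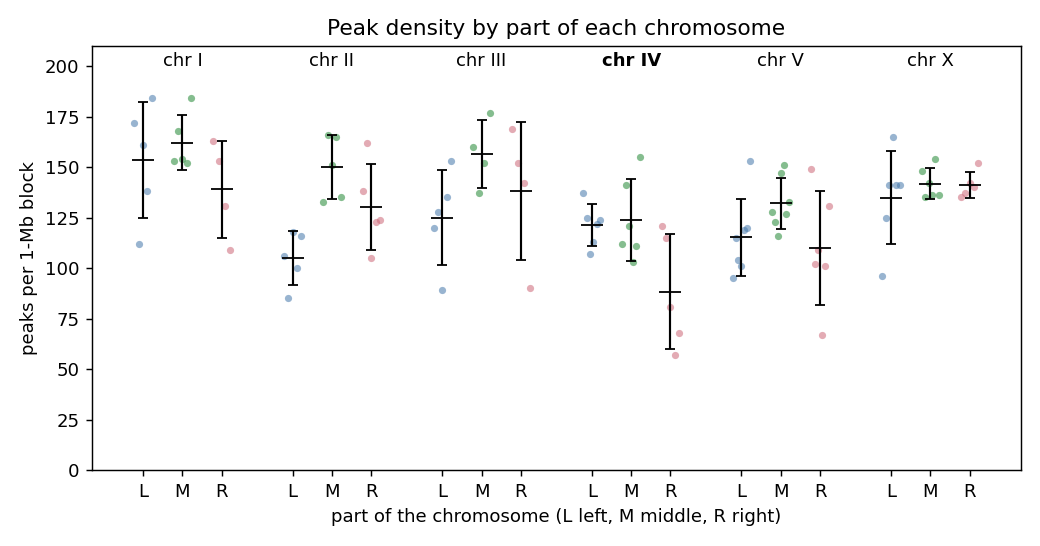
Peaks per whole 1-Mb block in the left (L), middle (M) and right (R) part of each chromosome; points are blocks, bars are means ± SD over blocks. The right part of chromosome IV has the lowest mean, 88.4, and its blocks split into a pair at 115 and 121 and a lower set from 57 to 81.

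The decline did not begin at the border of the right part but close to 14 Mb, a position singled out after the block counts had been seen. From the start of the right part to 14 Mb, 124.3 peaks per Mb were found, the level of the middle part. From there to the last peak, 252 peaks gave 72.5 per Mb. The 3 whole blocks of this end held 81, 57 and 68 peaks, and the incomplete block after them held 46 peaks in 0.477 Mb. Blocks 1 to 14 held 121.9 ± 14.2 peaks (SD), none of them under 103. Block 16, from 15000001 to 16000000, was the emptiest of the 96 whole blocks of the list. Only 1 block of the other chromosomes, on chromosome V from 17 to 18 Mb with 67 peaks, fell to 81 or less.

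The fullest blocks of chromosome IV lay elsewhere. Block 12, across the border of the middle and right parts, held 155 peaks, block 8 held 141 and block 1, at the left end, held 137. Block 1 is next to the left telomere and still reached the level of the median block of the other chromosomes. Before the first peak, 48.7 kb at that end held none.

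The right part had fewer strong and fewer weak peaks per length than the others, and at its sparse end the share of strong peaks was close to that of the rest of the chromosome. Of the 252 peaks there, 38 were strong, or 15.1% (interval 10.9% to 20.1%), against 16.9% of the 1707 peaks before it (15.1% to 18.7%). The median peak of the sparse end was weaker, with a q-value of 0.000664 against 0.000259 before it. By parts, strong peaks numbered 18.9 per Mb on the left, 23.2 in the middle and 13.9 on the right. The right part of chromosome V was lower still, with 12.6 per Mb. Peaks with a q-value above 0.001 numbered 50.3, 48.2 and 39.8 per Mb in the left, middle and right parts of chromosome IV. In the 15 parts of the other chromosomes these weak peaks ranged from 45.4 to 56.4 per Mb, so the right part of IV lay below all of them.

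Long stretches without a peak were frequent, above all in the right part. Chromosome IV had 36 peak-free stretches of 50 kb or more between neighbouring peaks, against 35 on the longer chromosome V and 10 to 14 on each of I, II, III and X. They took up 14.7% of its length, compared with 12.1% on V and at most 5.65% elsewhere. Of the 36, the left part held 9, the middle part 8 and the right part 19. The right part spent 25.3% of its length in such stretches. The highest value in a part of another chromosome was 14.7%, in the left part of V.

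Between those stretches the right part looked much more like the rest. The median distance from the edge of a peak to the next was 4196 bp there, against 3868.5 bp on the left and 3659 bp in the middle, while the 90th percentile was 26162 bp against 19785 and 20125 bp. With stretches of 50 kb or more left out of the length, the right part carried 125.0 peaks per Mb and the ratio to the left and middle parts rose from 0.769 to 0.932. On the other chromosomes this ratio ran from 0.928 on V to 1.01 on X, so that of IV lay within their range. Removing stretches without peaks raises a density by construction, most where they are most frequent. In the sparse end alone the density stayed lower, at 106.4 peaks per Mb outside those stretches, against 136.2 in blocks 1 to 14, and the median distance between neighbours was 5617 bp against 3706 bp. This end was singled out by its low block counts, so both values in part restate that choice. How the low number there is made up was not tested.

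**Figure D3:**
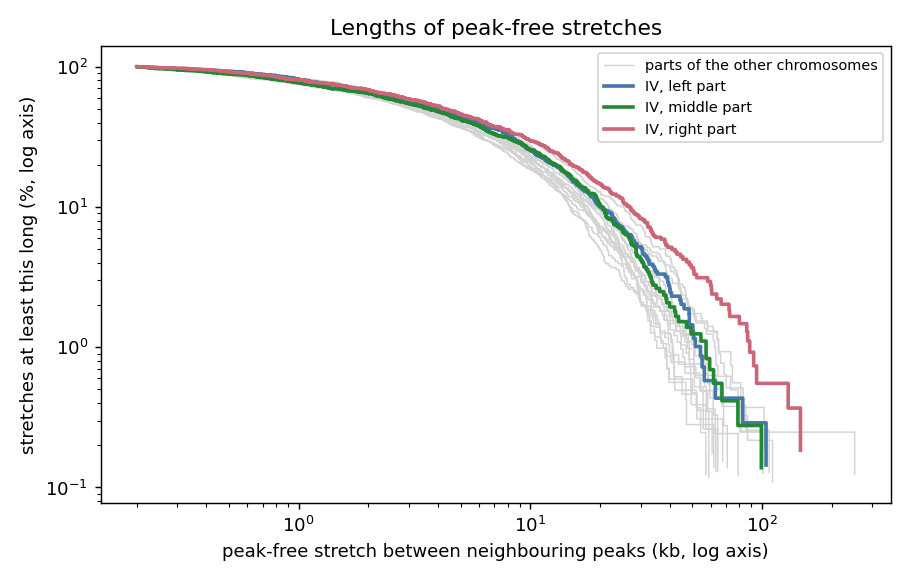
Share of peak-free stretches (percent, log axis) that reach at least a given length (kb, log axis), for the 3 parts of chromosome IV in colour and the 15 parts of the other chromosomes in grey. The curves lie together at short lengths, with medians of 3659 to 4196 bp on chromosome IV, and the right part of chromosome IV lies highest at lengths of 50 kb, where it has 19 stretches.

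The longest peak-free stretch of chromosome IV ran for 146.7 kb, from 16509563 to 16656213, and ranked 2 in the whole list. It lay between a weak peak of 119 bp (q of 0.00548) and a peak of 635 bp with a q of 5.74e-11. The next, from 16199157 to 16328946, measured 129.8 kb and ranked 3 in the list. Both lie within block 17, which therefore held its 68 peaks in what was left. Outside the right part, the longest were 104.2 kb in the left part, from 2495453 to 2599647, and 99.4 kb in the middle part, from 6649054 to 6748466. Next came a stretch of 94.8 kb from 13566450 to 13661287, in the denser beginning of the right part. The stretch of 104.2 kb was flanked on its right by a peak with a q of 1.28e-21. A strong peak stood on at least 1 side of 10 of the 36, or 27.8%, close to the 30.3% of all stretches between neighbouring peaks of the chromosome.

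About equal numbers of chromosome IV peaks stood alone and in groups, and large groups were few. Another peak's midpoint lay within 2 kb of 49.1% of them (interval 46.8% to 51.3%), inside the range of the other chromosomes, 48.5% on V to 54.2% on I. The middle part had 52.4% (48.6% to 56.1%), the left part 46.9% (43.1% to 50.7%) and the right part 47.4% (43.2% to 51.7%), with intervals that overlap. In the sparse end the share was 40.9% (34.7% to 47.2%), against 50.3% (47.9% to 52.7%) in blocks 1 to 14. With fewer peaks per length this share falls by construction.

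Runs, in which each midpoint is at most 2 kb from the next, reached 5 or more peaks 16 times on chromosome IV and held 4.65% of its peaks, the smallest share of the 6 chromosomes. The others ranged from 6.28% on II to 10.05% on V. By part of IV the share was 4.18% on the left, 6.22% in the middle and 3.14% on the right, from 5, 8 and 3 runs. No interval was computed for it, and a lower density by itself lowers such a share. The longest run had 8 peaks, from 558951 to 568742 in the left part, where peaks covered 40.5% of 9792 bp. None of its 8 peaks was strong, and the lowest q was 6.50e-08. The next, from 7091106 to 7099850, had 7 peaks, 3 of them strong, with a lowest q of 1.22e-71. Of the 3 runs of 6 with the lowest q-values, the one from 12613890 to 12619134 reached 6.59e-91, the one from 10499989 to 10505395 reached 2.01e-62 and the one from 11063294 to 11068680 reached 6.92e-61. A run with many peaks was therefore not always one with strong peaks.

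The right part of chromosome IV had the fewest and the widest peaks of the 3. The median was 249 bp in the left part (interval 230 to 272 bp), 266 bp in the middle (252 to 286 bp) and 284.5 bp in the right (269 to 299 bp), with overlapping intervals. The right part thus had the next to highest median of the 18 parts, after the middle part of X with 300 bp. Its median was 1.10 times that of the left and middle parts together, the highest such ratio of the 6 chromosomes, which otherwise ran from 0.897 on V to 1.05 on III. The order did not hold from block to block: block 16, with 57 peaks, had a median of 266 bp, and block 6, with 124 peaks, had 321 bp. In the sparse end as a whole the median was 305 bp (280 to 340 bp), against 261 bp (250 to 273 bp) in blocks 1 to 14. The right part of chromosome V was also sparse, with 112.0 peaks per Mb, but its median width was 200 bp.

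**Figure D4:**
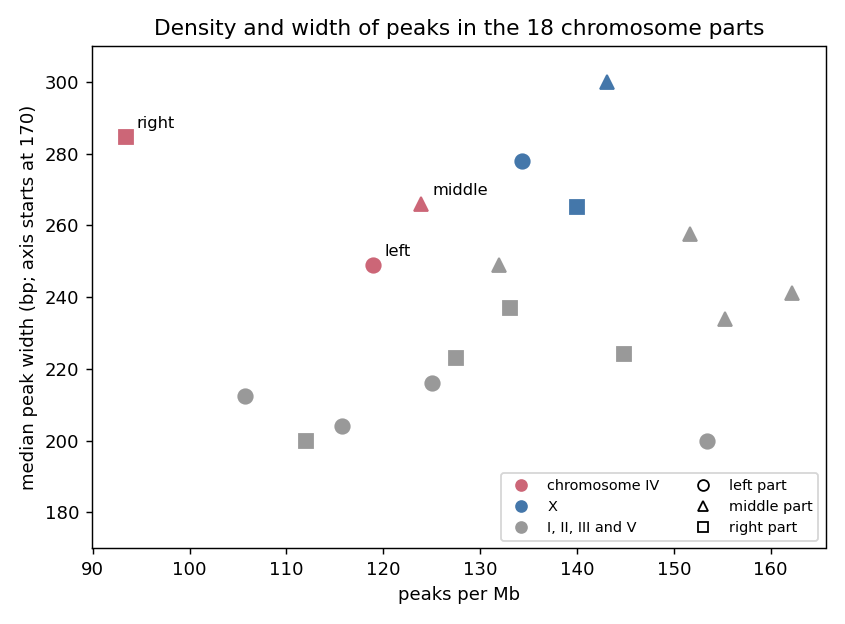
Peaks per Mb and median peak width in bp of the 18 parts (symbols for left, middle and right; the width axis starts at 170 bp). The right part of chromosome IV lies alone at low density, 93.4 per Mb, and large width, 284.5 bp, while the sparse parts of II and V have medians of 200 to 212.5 bp.

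Peaks with lower q-values were wider in the list, so widths were also compared within classes of q-value. Among strong peaks the median of chromosome IV was 483.5 bp (interval 448 to 518 bp), within the range of the others, from 444 bp on II to 493 bp on V. Among the 827 peaks between a q of 1e-10 and 0.001 it was 296 bp (287 to 306 bp), ahead of X with 283 bp (277 to 293 bp) and of the other autosomes with 240.5 to 255 bp. Among the 806 peaks above 0.001 it was 177 bp (167 to 190 bp), against 157 bp on X (147 to 168 bp) and at most 145 bp on the other autosomes. The larger widths of chromosome IV were therefore found in the weaker classes and not, beyond counting error, among strong peaks.

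In the weak class the medians of all 3 parts lay above those of the 15 other parts, but with intervals that overlap the highest of these. Above a q of 0.001 the medians were 175 bp on the left (152 to 192 bp), 170 bp in the middle (151 to 186 bp) and 196 bp on the right (175 to 200 bp). The highest of the 15 other parts was the left part of X with 157.5 bp (142 to 177 bp). Of the weak peaks of chromosome IV, 16.1% were under 50 bp, against 19.1% on X and 20.2% to 23.4% on the other autosomes. In the class between 1e-10 and 0.001, the right part reached 317 bp (296 to 332 bp), and the left and middle parts 288.5 and 287.5 bp. The highest of the 15 other parts in this class was the middle part of X with 302 bp. That is above the left and middle parts of IV and inside the interval of its right part.

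**Figure D5:**
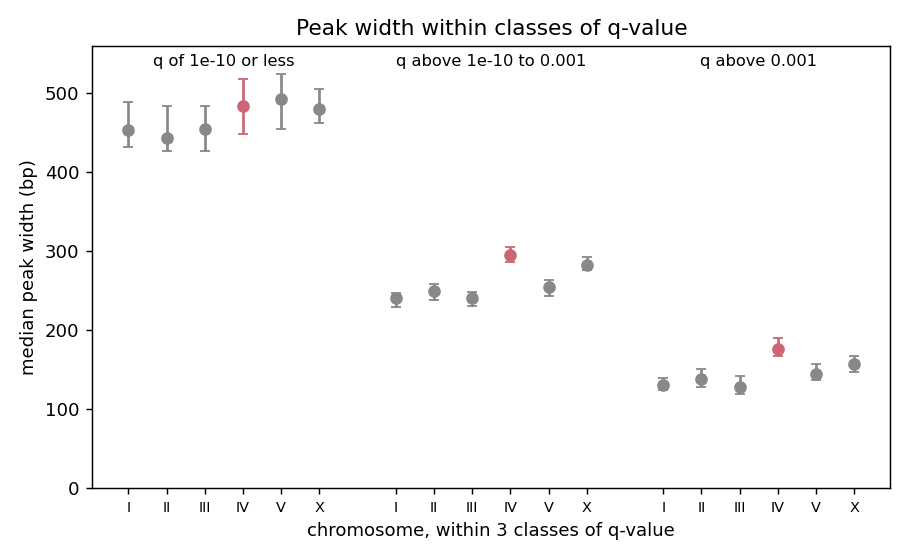
Median peak width in bp of each chromosome within 3 classes of q-value; bars are exact 95% binomial intervals of the median. Chromosome IV (red) lies within the others among strong peaks, at 483.5 bp, and highest in the weaker classes, at 296 and 177 bp.

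Broad peaks, of 1 kb or more, numbered 42 on chromosome IV, 2.14% of its peaks (interval 1.55% to 2.89%), against 1.85% on the other chromosomes. Of them, 10 lay in the left part, 14 in the middle and 18 in the right. Their shares were 1.44% (0.694% to 2.64%), 1.94% (1.06% to 3.23%) and 3.31% (1.97% to 5.18%), with overlapping intervals. The sparse end held 14 of them, 5.56% of its peaks (3.07% to 9.15%), against 28 in blocks 1 to 14, or 1.64% (1.09% to 2.36%). Ends of the same length, 3.48 Mb, on both sides of every chromosome had shares of 0.616% to 2.25% apart from this one. Its interval still overlapped those of both ends of III, both ends of X and the left end of V. The highest upper bound among these was 4.09%, at the right end of III. This end also had the largest median width of the 12. Its border was set by the fall in block counts, so its low density among them restates that choice, and the shares of broad peaks are a description.

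Several of these broad peaks were not strong. Of the 14, 6 had a q-value above 1e-10 and 4 had one above 1e-04. Before 14 Mb, 3 of 28 were above 1e-10 and 0 above 1e-04. Among the other ends of the same length, 2 of 4 were above 1e-10 at the right end of V. The right end of II had 2 of 5 and the left end of V 2 of 7, while each remaining end had at most 1. Chromosome V as a whole had more broad peaks above 1e-10 than chromosome IV, 11 of 42 against 9 of 42, while each of the other chromosomes had 1 above 1e-04. The one with the highest q was 1042 bp wide, from 14072081 to 14073122, with a q of 0.00382. A peak of 1257 bp from 14784652 to 14785908 had 0.000589, one of 1026 bp from 14893907 to 14894932 had 0.000547, and one of 1033 bp from 15475941 to 15476973 had 0.000284. Another peak, from 14620526 to 14622902, was 2377 bp wide with a q of 2.09e-07.

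The strongest peaks of chromosome IV were spread over its length. Of the 10 with the lowest q-values, 3 lay in the left part, 3 in the middle and 4 in the right, and 8 had another midpoint within 2 kb, as 49.1% of all peaks of the chromosome did. The strongest, from 3231326 to 3234033 in the left part, was also the widest of the chromosome, with 2708 bp and a q of 1.68e-123, and ranked 12 in the list. Rank 2 on the chromosome, from 14032407 to 14034900, was nearly equal to it, with 2494 bp and a q of 2.61e-123. It lay in the sparse end, 17923 bp from its neighbour on the left and 11978 bp from that on the right. The first of the pair had a neighbour 390 bp away on its right and another 3022 bp away on its left.

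The remaining ones were mostly narrower. In the right part followed the peak from 12615173 to 12615974 (802 bp, q of 6.59e-91), the one from 13826191 to 13826741 (551 bp, 4.86e-84) and the one from 12637061 to 12637821 (761 bp, 2.21e-81). The left part had those from 1107195 to 1109426 (2232 bp, 2.77e-84) and from 2136584 to 2137101 (518 bp, 1.13e-68). In the middle part the strongest was the peak from 10821390 to 10822383, with 994 bp and a q of 2.40e-75. It was followed there by those from 7099289 to 7099850 (562 bp, 1.22e-71), which ends the run of 7 described above, and from 8431628 to 8433439 (1812 bp, 2.01e-65). The peak at 13826191 had no neighbour for 25059 bp on its left and 50889 bp on its right.

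The 5 widest peaks were all strong. After the strongest peak came the one from 13029060 to 13031752 with 2693 bp (q of 9.88e-57), the one from 16490745 to 16493401 with 2657 bp (4.25e-47), the peak at 14032407 with 2494 bp, and the one from 4446312 to 4448794 with 2483 bp (8.29e-46). Of these 5, 3 lay in the right part. The peak at 16490745 lay in the sparse end, before the longest peak-free stretch.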

How the data were processed

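The input was 1 deposited peak list of the whole series, made from 2 ChIP and 2 input libraries. PeakSeq was the peak caller and WormBase WS180 the build, per the file headers and the list's source column. The list is named as combined, so its peaks are taken to stand for both replicates; whether reads were pooled or calls merged is not stated. No source used here names the aligner or says how reads were filtered and ChIP was scaled to input. The authors deposited positions and 1 q-value per peak, given again in the attribute column with 0 differences. No q-value was above 0.00994 and no 2 peaks were nearer than 200 bp, so weaker regions and closer peaks are absent. Depth is unknown.

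Widths, densities, peak-free stretches between peak edges, runs and intervals (exact binomial, for medians by order statistics) were computed with scipy 1.17.1, numpy 2.4.6 and pandas 2.3.3 under Python 3.11.15; matplotlib 3.10.9 drew the figures. Chromosomes were measured from base 1 to their last peak's end and cut into 3 equal parts. Peaks were placed by midpoint, and blocks by their centre. The code was tested on simulated lists. Regions were named by rule: the 10 strongest and 5 widest peaks, the 5 longest peak-free stretches, the 5 longest runs and the 3 fullest and 3 emptiest blocks; other regions were named after their values were seen. The members, limits and comparisons were chosen with earlier results of these data known. The gene table at hand is on WBcel235, so no gene was assigned to a peak and no sequence was read. Alternatives were stricter q-values, a minimum width, joined peaks, other blocks and other distances.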

Additional observations from a re-analysis of the deposited data

How the results depend on the processing

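The lower density of the right part kept its direction under each alternative tried, with ratios to the left and middle parts from 0.661 to 0.803. The lowest was in peaks with a q of 1e-10 or less (0.661) and the highest in the peaks weaker than the median q (0.803), both sets chosen after seeing the data. In peaks with a q of 1e-10 or less, chromosome V had a lower ratio, 0.642, and the remaining chromosomes had 0.801 to 0.955. For the length covered by peaks the ratio was 0.853 on IV and 0.747 on V. The larger width of the right part of IV also kept its direction, with ratios from 1.06 to 1.12. The rank of chromosome IV by density was taken from all peaks over the whole length, so block size could not change it. Chromosome IV had the lowest density with peaks at a q of 0.001 or less, without peaks under 50 bp and with joined peaks. It was next to lowest in the stronger peaks by median q and in those at a q of 1e-10 or less, where it had 18.7 per Mb and V had 17.3. Its density was 54.8 peaks per Mb in the stronger peaks by median q and 66.2 at a q of 0.001 or less, which follows from the smaller sets, and its median width stayed second to X at 363 bp in the stronger peaks, 334 bp at a q of 0.001 or less, 286 bp without peaks under 50 bp and 296 bp with peaks joined within 1 kb. Stretches of 50 kb or more numbered 83 in the stronger peaks and 73 at a q of 0.001 or less; 109 reached 30 kb and 3 reached 100 kb. Neighbours within 2 kb were found for 33.3% of the stronger peaks and 38.2% of those at a q of 0.001 or less, and among all peaks for 21.1% within 1 kb and 77.1% within 5 kb. Strong peaks made up 34.5% at a limit of 1e-05 and 6.94% at 1e-20. No paired analysis was possible because peaks were deposited for both replicates together, which also leaves no fit without either of them. Without counts, how far depth bears on the weak peaks cannot be stated.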

Other observations

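A width of exactly 200 bp was found for 74 peaks of chromosome IV, 3.78% of them, while no other width was found for more than 12. The whole list had 456 such peaks, 3.48%, with 2.60% on X at the low end and 3.95% on III at the high end. Another 4 peaks of chromosome IV were 1 bp wide.

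The longest stretch of chromosome IV without a strong peak ran for 522.8 kb, from 15646912 to 16169694 in the sparse end, and held 26 weaker peaks. By part of the chromosome, the median spacing between neighbouring strong midpoints was 33.5 kb on the left, 27.4 kb in the middle and 37.0 kb on the right.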
